A study of Homo sapiens with 3 samples.

Results

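Ribosome footprints past the normal termination codon (NTC) and before the next stop codon in frame with it (the 3′TC, within the 3′UTR) were present in both untreated libraries for 658 transcripts of 657 genes. These transcripts, called the members here, were picked by 3 criteria applied to the 5680 transcripts with enough signal. The first was a minimum on the mean number of reads in the coding sequence (CDS) over the 3 libraries. The least covered member passed it with a mean of 129 reads. The second was a region of at least 18 nt after the NTC, up to and including the 3′TC. The third was at least 1 read in that region in each of the untreated libraries, A and B. Region lengths include the first 6 nt after the NTC, which are left out of the region's reads and densities. The members were 11.6% of the 5680 transcripts, and 5022 transcripts lacked reads in 1 or both untreated libraries. The untreated readthrough reads chose the members, so their untreated values are given as a description, while the readthrough reads of the G418 library had no part in the choice. Its CDS reads, the denominator of its RRTS, entered the choice through the minimum on CDS reads.

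The study profiled ribosomes in HEK293T, a line from human embryonic kidney cells that expresses an SV40 T antigen, grown in DMEM with 10% FBS. Untreated A and Untreated B received 0 µg/mL of drug, and G418 A received 500 µg/mL of the aminoglycoside G418 for 24 h. The 3 libraries held 5857230, 9477972 and 7216039 reads, to which the deposited RPM values are scaled. Values of the 3 libraries are given below in the order Untreated A, Untreated B, G418 A unless named otherwise. With 1 G418 library there is no measure of error between G418 cultures. Readthrough was given no test between the conditions, CDS reads were tested on the assumption that G418 A varies like the untreated pair, and intervals on single transcripts cover counting error alone. The labels do not say whether the untreated libraries came from separate cultures, and the study's methods call its libraries biological replicates. As a check of the cell line, VIM, KRT8, KRT18, NEFM and NEFL were listed in every library, PAX2 was listed in Untreated B alone at 1.48 RPM, and of 6 genes of other cell types HBA1 alone was listed, at 0.422 RPM in Untreated B and 0.416 RPM in G418 A.

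Translation ends when a stop codon in the A site is read by the release factors eRF1 and eRF3. Stop codon readthrough (SCR) occurs when a near-cognate tRNA is accepted at the stop codon instead, so that the ribosome continues into the 3′UTR until the next in-frame stop codon. UGA is known as the leakiest of the stop codons and UAA as the tightest, the nucleotide that follows the stop codon modulates termination, and aminoglycosides such as G418 bind the decoding center and lower its accuracy. The Ribosome ReadThrough Score (RRTS) is the footprint density between NTC and 3′TC divided by the density in the CDS, and it is given here as a percentage of the CDS density. Reads in that region are called readthrough reads here whatever their source. Over all genes the study found the CDS reading frame lost in 3′UTRs of untreated cells and kept with G418. The deposited values hold no reading frame, so whether the members' untreated reads came from SCR was not tested.

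The sequences around the NTC of the members that carry the results are printed 5′ to 3′ from the hg38 genome with the GENCODE v44 annotation, with the stop codon in capitals, the last 12 nt of the CDS before it and 15 nt of the 3′UTR after it. The coordinates are those of the stop codon. The first set holds members with the highest untreated RRTS among those with at least 10 reads in each untreated library, and all of those shown end in UGA.
TAF1D (chr11:93736161-93736163, minus strand): ggcctgaaaatgTGAcaggatcatgaatgt
HOXD11 (chr2:176109140-176109142, plus strand): aaccccttatttTGAgagctccaggaagcg
NAA38 (chr17:7856731-7856733, minus strand): cctccgtatctcTGAccacgatggcgctta
BRI3BP (chr12:125025428-125025430, plus strand): tccaaggacaagTGAaggtcagccggccgg
AL031777.3 (chr6:26197142-26197144, minus strand): ccaccggcggcgTGAagaagccccaccgtt
MDH1 (chr2:63606985-63606987, plus strand): ctttcctctgccTGActagacaatgatgtt
PMAIP1 (chr18:59902846-59902848, plus strand): ctgcattgtaatTGAgaggaatgtgaaggt
FBL (chr19:39834538-39834540, minus strand): aaggtgaagaacTGAagttcagcgctgtca

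The second set holds members with at least 10 untreated reads in each library whose G418 RRTS was highest relative to the untreated mean, followed by TOMM7, whose RRTS in G418 A was near the untreated values.
BSG (chr19:582575-582577, plus strand): aggaactcttccTGAggcaggtggcccgag
EEF1A1 (chr6:73517810-73517812, minus strand): cagaaggctaaaTGAatattatccctaata
CKB (chr14:103519864-103519866, minus strand): cctgcccagaaaTGAagcccggcccacacc
RPS4X (chrX:72272671-72272673, minus strand): cagagcagtgggTGAaatgggtccctgggt
TOMM7 (chr7:22813097-22813099, minus strand): ctctggctcggaTAAgagatgggacatcat

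The third set holds LDHB and PHF19, which with MDH1 are the members in which UGA is followed by CUAG, and GSKIP, in which UGA is followed by CUA.
LDHB (chr12:21635542-21635544, minus strand): ctaaaagacctgTGActagtgagctctagg
PHF19 (chr9:120857944-120857946, minus strand): accaccccttacTGActagcccccgggggt
GSKIP (chr14:96385682-96385684, plus strand): gatggacagtcaTGActacactttttcctt

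Of the 658 members, 594 matched the reference annotation by transcript, CDS length, stop codon context and distance to the 3′TC, and 569 of these had the NTC in the last exon. GPATCH4, KIF22, ACTB and PFN1 did not match, so no coordinates are given for them. In BSG the NTC lay in exon 8 of 9 and in OST4 in exon 1 of 2.

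The members held a large share of the untreated readthrough reads. They carried 3029 and 4148 untreated reads, which were 66.0% and 67.8% of those on the 5680 transcripts in Untreated A and B. In G418 A they carried 34378 reads, or 44%. At CDS density the same regions would hold 41.6%, 42.7% and 39.4% of the readthrough reads of the 3 libraries, so in G418 A the members' share of reads was close to their share of expected reads. The reads were spread over many transcripts, and the 10 members with the most reads held 10.9%, 13.1% and 13.5% of the members' reads.

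Pooled over members, the RRTS was 2.48% in Untreated A and 1.98% in Untreated B, a mean of 2.23% ± 0.358 (SD, n = 2), and it was 23.8% in G418 A. The G418 value was 10.7 times the untreated mean, while the untreated libraries differed by 1.26 times. In the other 5022 transcripts the pooled RRTS was 0.912%, 0.700% and 19.7%. The difference between members and others in the untreated libraries was set by the rule, which requires untreated reads in the members, so the folds of the 2 sets are not compared.

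Counts on single members were low in the untreated libraries. The median member had 3, 4 and 25.5 reads in the 3 libraries, and 40 members had a single read in each untreated library. At least 3 reads in each untreated library were present for 268 members and at least 10 for 48 members. The mean untreated RRTS of single members ran from 0.0785% to 406%, with 82 members under 1%, 165 at 10% or more and 7 at 100% or more.

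Members with 1 read in each untreated library show how the threshold worked where a region would hold many reads at CDS density. YWHAQ, ATP6V0B and SRP14 had 1 read in each untreated library, and their RRTS was 0.115%, 0.0681% and 5.41% for YWHAQ, 0.228%, 0.127% and 9.28% for ATP6V0B, and 0.287%, 0.176% and 3.15% for SRP14. Non-members with the most reads in 1 untreated library and 0 in the other were RHOA, IFT27 and GMNN. RHOA had 20 reads in Untreated A and 0 in Untreated B, IFT27 had 0 and 14, and GMNN had 13 and 0. These 3 transcripts had 320, 14 and 29 reads in G418 A.

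Across members, RRTS in Untreated A and in Untreated B were correlated, though both libraries were used by the rule. Across the 658 members the Pearson r of log2 RRTS between Untreated A and Untreated B was 0.78, and it was 0.90 across the 268 members with at least 3 reads in each and 0.94 across the 48 with at least 10. Transcripts are not replicates, and both axes share the gene, the region length and a CDS density in the denominator. The rule sets a floor of 1 read under each value, and the smaller sets have higher floors. The floor ties RRTS to depth in both libraries, so these r values are a description. The RRTS values of the pair of libraries lay within 2-fold of each other in 366 of 658 members, in 194 of 268 and in 37 of 48. Untreated A was the higher of the pair in 385 members.

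**Figure D1:**
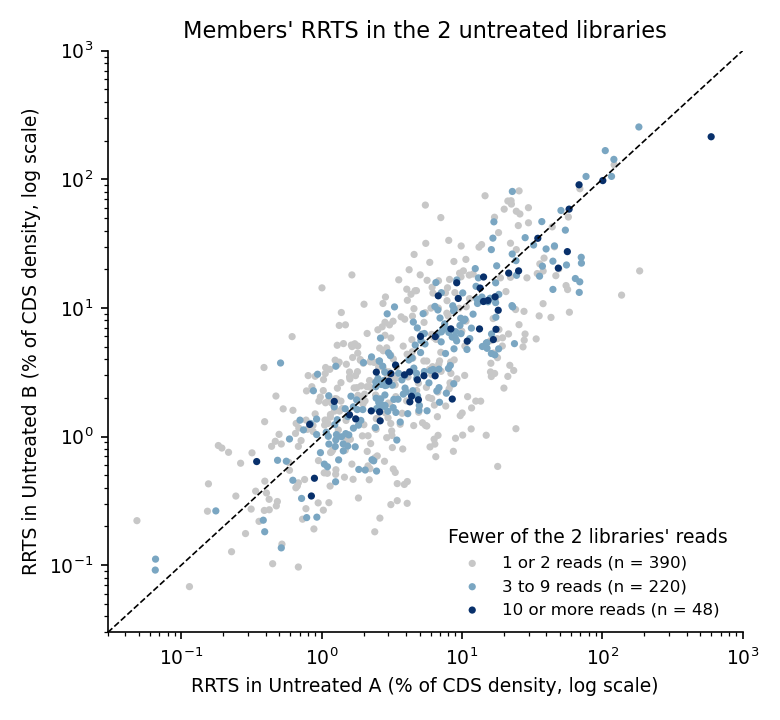
RRTS of the 658 members in Untreated A (x) and Untreated B (y), each as a percentage of the CDS density on a log scale, with 1 point per transcript, shaded by the smaller of the 2 read counts, and equality dashed. The 48 members with 10 or more reads in each library lie closer to the dashed line than the 390 with 1 or 2 reads.

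The G418 RRTS of members rose with the untreated RRTS, with a flatter slope than equality. With members ordered by Untreated A into 4 bins, the median RRTS in Untreated B was 0.958%, 2.14%, 4.51% and 13.9% from the lowest to the highest bin, and the median in G418 A was 17.7%, 28.5%, 34.8% and 51.9%. Both untreated libraries were used by the rule, which sets a floor of 1 read under each untreated value, so no fold is compared between the bins. The Pearson r of log2 RRTS between the untreated mean and G418 A was 0.52 across the 643 members with G418 reads, with a Spearman rho of 0.48, and r was 0.64 across the 48 members with at least 10 reads in each untreated library. The SD of log2 RRTS across the 643 members was 1.87 for the untreated mean and 1.45 for G418 A. CDS density moved with both measures: its log2 value in G418 A had an r of -0.64 with the untreated log2 RRTS and of -0.36 with the G418 log2 RRTS, and since it is the denominator of RRTS, its part in the relation was not tested.

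**Figure D2:**
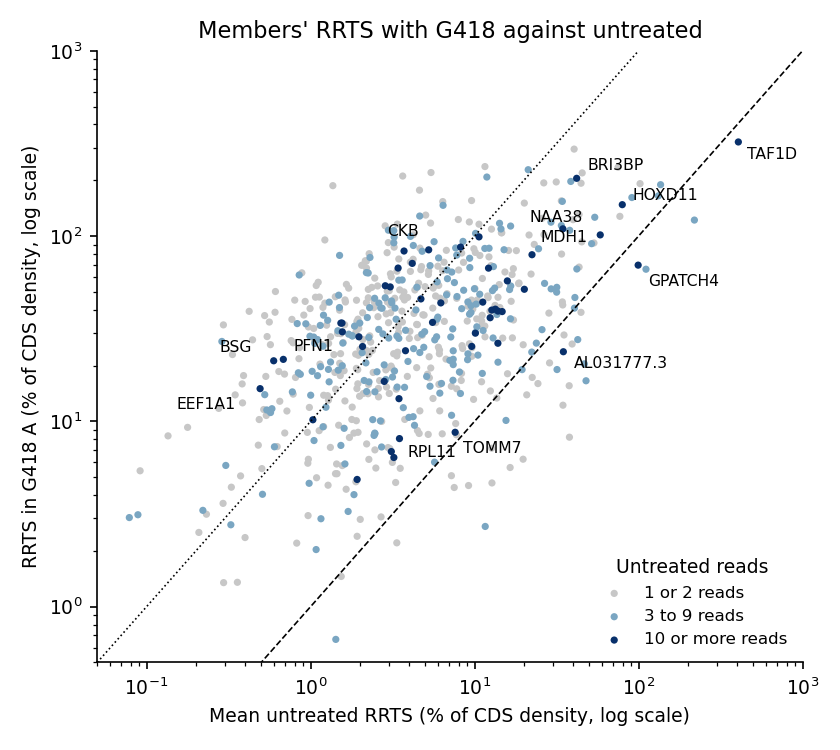
RRTS in G418 A (y) against the mean untreated RRTS (x) for the 643 members with G418 reads, both as a percentage of the CDS density on log scales, with 1 point per transcript shaded by the smaller untreated read count, a dashed line at equality and a dotted line at a ratio of 10. Most members lie above equality, and the members with the highest untreated RRTS lie closest to it.

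G418 A had a higher RRTS than both untreated libraries in 590 of 658 members (89.7%), against 72% of all 5680 transcripts. A transcript without reads in 1 untreated library cannot lie below both, and members had more CDS reads and longer regions than the others. The rule and depth thus shape these shares, and no difference in response is read from them. The G418 RRTS was lower than both untreated values in 30 members and between them in 38. The ratio of the G418 RRTS to the untreated mean had a median of 7.18 and quartiles of 2.99 and 16.5 across members. The ratio was at least 2 in 556 members, at least 10 in 266 and below 1 in 48. Of the 48 members with at least 10 reads in each untreated library, 45 were above both untreated values, 40 had a ratio of at least 2 and 3 had a ratio below 1.

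G418 A held readthrough reads for 643 members (97.7%), against 75.8% of the 5680 transcripts, and none for 15 members. Among these the region of MRPL52, a mitochondrial ribosomal protein, had the most expected reads, and 0 reads there allow an RRTS of up to 1.77%, against an untreated mean of 0.528% from 1 read in each library. For ZNF529, with 1 and 11 reads untreated, 0 reads in G418 A allow an RRTS of up to 19.4%, against an untreated mean of 28.8%. That limit lay above the Untreated A value and below the Untreated B value, so no direction of change is given. For the least covered, MFSD4B, the limit was 127%, so that a change was not detectable at this depth.

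Detection in both untreated libraries needs many CDS reads and a long enough region, and the members differed from the others in both. The median member had 679.5, 1056 and 827 CDS reads in the 3 libraries, against 282, 468.5 and 383 for the others. The median region was 88.5 nt long in members (quartiles 53.2 and 144 nt) and 63 nt in the others (36 and 114 nt), and the median CDS was 823.5 nt long in members and 1530 nt in the others. The expected reads, the number a region would hold at CDS density, had an untreated median of 99.2 in members and 15.9 in the others. All 5680 transcripts were therefore put into 4 quartiles of expected reads, in which 1.62%, 4.23%, 9.79% and 30.7% of transcripts were members, from the fewest expected reads to the most.

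Members had the higher median RRTS in G418 A in each of the 4 quartiles. Expected reads were not equal within a quartile, with medians of 5.54, 12.7, 34.8 and 178 in members and 3.73, 11.8, 29.2 and 95.4 in others, from the fewest to the most. In the quartile with the most expected reads the median G418 RRTS was 26.1% in 436 members and 14.6% in 984 others, and the pooled values were 22.6% and 15.7%. Readthrough reads in G418 A were present for 99.8% of these members and 92.8% of these others. In the next quartile the medians were 42.5% in 139 members and 20.3% in 1281 others. In the quartile below it they were 46.0% in 60 members and 19.4% in 1360 others, and in the quartile with the fewest expected reads they were 90.1% in 23 members and 0% in 1397 others. Over all transcripts the medians were 29.8% in members (quartiles 15% and 53.0%) and 16.6% in the others (0% and 41.4%). These are differences between sets of transcripts in 1 library and carry no test.

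**Figure D3:**
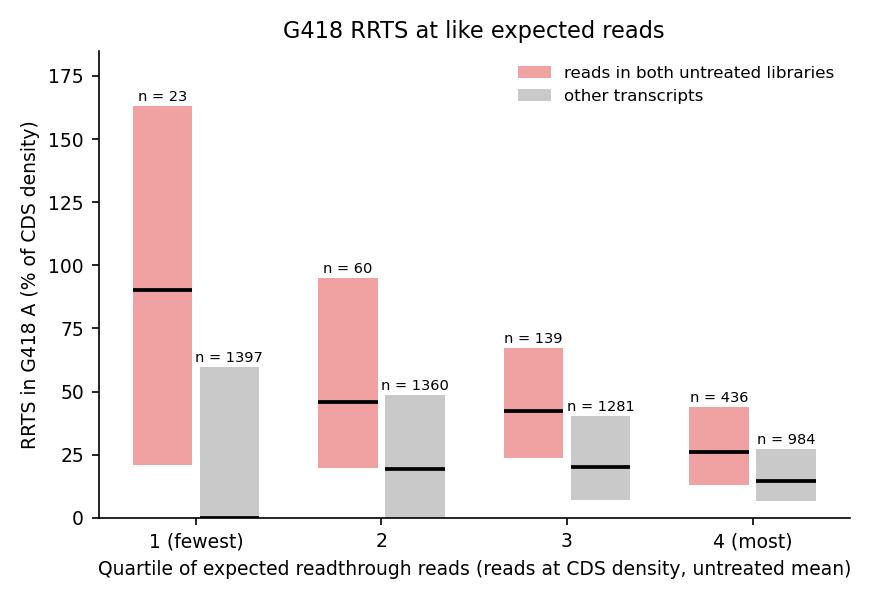
RRTS in G418 A as a percentage of the CDS density (y) within quartiles of the expected readthrough reads (x), for members (red) and other transcripts (grey), where bars span the first to the third quartile of RRTS across transcripts, black lines are medians and n is the number of transcripts. The members' median is the higher in each of the 4 quartiles, at 26.1% against 14.6% where expected reads were most.

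An RRTS of at least 10% in G418 A was reached by 548 of 658 members (83.3%, Wilson 95% interval 80.2% to 85.9%), against 63.3% of the 5680 transcripts. Within the quartile with the most expected reads the shares were 80.5% of members and 64.8% of the others. An RRTS of at least 100%, where the region is as dense as the CDS, was reached by 58 members (8.81%), against 7.11% of the 5680 transcripts, a share near the background. In the quartile with the most expected reads it was reached by 17 of 436 members and by 2 of 984 others.

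The stop codon was not used by the rule. UGA ended 357 members (54.3%, Wilson 95% interval 50.4% to 58.0%), UAA 191 (29.0%) and UAG 110 (16.7%), while the others ended in UGA at 48.2%, in UAA at 30.1% and in UAG at 21.7%. The difference in UGA share was smallest where expected reads were most. UGA ended 73.9% of members and 47.2% of others in the quartile with the fewest expected reads, 60% and 49.3% in the next, 64.0% and 49.0% in the one above, and 49.3% and 46.8% in the quartile with the most. With a minimum of 500 mean CDS reads the members' UGA share was 48.8%.

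The nucleotide after the stop codon set members apart within UGA. UGAC ended 560 of the 5680 transcripts and 107 of these were members (19.1%), the highest share of the 12 signals of 4 nt, followed by UGAA with 118 of 787 (15%). UGAG ended 1054 transcripts, of which 95 were members (9.01%), and UAGC had the lowest share with 25 of 342 (7.31%). In the quartile with the most expected reads, 51 of 115 UGAC transcripts (44.3%, Wilson 95% interval 35.6% to 53.5%), 83 of 200 UGAA transcripts (41.5%, 34.9% to 48.4%) and 60 of 285 UGAG transcripts (21.1%, 16.7% to 26.2%) were members, against 30.7% of that quartile. UGAC held the highest share in each of the other 3 quartiles too, at 5.70% against 1.62%, at 9.62% against 4.23% and at 24.4% against 9.79%.

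In G418 A the members' RRTS followed the same order of stop codons as that of the others. The median was 41.2% for UGA, 25.5% for UAG and 15.3% for UAA in members, and 24.9%, 15% and 8.14% in the others. By 4 nt the members' medians ran from 9.12% for UAAG to 55.5% for UGAC, with 48.2% for UGAU, 39.5% for UGAA and 37.7% for UAAC. The members' median was above that of the others for each of the 12 signals, with 37.7% against 16.4% for UAAC and 39.5% against 27.6% for UGAA. The pooled G418 RRTS was lower in members than in others for 3 signals, UAAG (7.11% against 10.4%), UAGA (19.9% against 20.7%) and UAGU (9.60% against 18.8%).

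With members ordered into bins by untreated mean RRTS, the median G418 RRTS was highest for UGA in each bin. Among the 165 members with the lowest untreated mean, up to 1.69%, the median G418 RRTS was 28.6% for UGA, 17.3% for UAG and 7.30% for UAA. Among the 165 with the highest untreated mean, from 10.1% to 406%, it was 54.7% for UGA, and UAG and UAA were close at 39.3% and 38.8%. In that bin the untreated mean was not alike either, with medians of 21.2% for UGA, 15.9% for UAG and 18.6% for UAA. The share of UGA was 44.8% in the first of these bins and 66.1% in the second, and the median region was 123 nt and 63 nt long.

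Over all stop codons, the nucleotide directly after the stop codon was A in 37.5% of the 594 matched members and 31.4% of 4663 matched others, C in 24.6% and 21.2%, G in 26.1% and 32.0%, and U in 11.8% and 15.5%. The median GC content of the 30 nt after the stop codon was 46.7% in members and 50% in the others. UGA followed directly by CUA, a context known for high readthrough, was found in 13 of the 5257 matched transcripts (0.247%), searched on the transcript strand at that position alone, and 6 of these were members (1.01% of members) and 7 were others (0.150%). The 6 had a median of 85.8 expected untreated reads and the 7 had 9.67, so the 2 groups were not equally detectable. Their median G418 RRTS was 60.2% in the 6 and 84.2% in the 7, and the pooled values were 58.5% and 63.6%. UGA followed by CUAG, which is contained in that motif's matches, was found in 3 transcripts, MDH1, LDHB and PHF19, and each was a member. A stop codon followed by CAAUUA, a readthrough signal of plant viruses, was found in 0 of the 5257.

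The CUA members were not alike. MDH1, cytosolic malate dehydrogenase, had an RRTS of 25.4%, 19.4% and 79.3% in the 3 libraries. LDHB, a subunit of lactate dehydrogenase, had 15.3%, 11.4% and 40.3%. GSKIP, which binds glycogen synthase kinase, had 23.7%, 5.28% and 109%. LMAN1, a cargo receptor of the secretory pathway, had 13.9%, 12.2% and 68.4%, and TTC4, a cochaperone, had 15.1%, 4.85% and 51.9%. PHF19, a Polycomb subunit with the CUAG context, had 2.50% from 1 read, 3.8% from 3 reads and 6.0% from 4 reads. Thus 5 of the 6 had an untreated RRTS above the members' median in both libraries, and PHF19 lay below it in Untreated A.

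MDH1 and LDHB are known from the literature on readthrough, where their extended proteins are targeted to peroxisomes. Of 17 genes with known or studied readthrough, 5 were members (AMD1, BRI3BP, HSPA1B, LDHB and MDH1), 5 met both filters without reads in both untreated libraries (ACP2, AGO1, APRT, MTCH2 and SACM1L) and 7 were not among the 5680. AMD1, which makes the aminopropyl donor of polyamine synthesis, had 3, 13 and 101 reads over its 384 nt region and an RRTS of 3.31%, 10.2% and 48.2%. The study reports ribosomes stalled at the 3′TC of AMD1 in untreated cells, and more of them with G418. How far that peak enters the RRTS of AMD1 was not tested. HSPA1B, an inducible HSP70, had 7, 11 and 452 reads and an RRTS of 2.64%, 1.96% and 76.7%, and its near-identical copy HSPA1A makes the assignment of its reads uncertain. In 4 of the 5, all but HSPA1B, the whole region up to the 3′TC is annotated in GENCODE v44 as CDS of another transcript of the same gene. The same held for ACP2, AGO1 and SACM1L and for no other of the 5257 matched transcripts, so that 4 of 594 members (0.673%) and 3 of 4663 others (0.0643%) had an annotated extension. All 7 end in UGA, and the 4 members with an extension had a pooled RRTS of 18%, 14.9% and 61.9%.

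In 36 of the 594 matched members (6.06%) and 117 of 4663 others (2.51%) the region overlapped annotated CDS by at least 1 nt. Of the 36 members, 32 overlapped in part or with the CDS of another transcript. Their part in the untreated RRTS was not tested, and without the 36 the pooled RRTS of the remaining 622 members was 2.13% untreated and 23.5% in G418 A.

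The members with the highest untreated RRTS and at least 10 reads in each untreated library were TAF1D, GPATCH4, HOXD11, NAA38, BRI3BP, AL031777.3, KIF22, MDH1, PMAIP1 and FBL. All 10 end in UGA. TAF1D, a subunit of the RNA polymerase I factor SL1, had 23, 12 and 16 reads over its 24 nt, an RRTS of 597% (95% exact Poisson interval 379% to 896%), 214% (111% to 375%) and 322% (184% to 523%). Its G418 value lay between the untreated values. GPATCH4, a G-patch protein, had 14, 17 and 15 reads and an RRTS of 101%, 97.8% and 69.7%, with a G418 interval of 39% to 115% that held both untreated values. AL031777.3 had 48, 94 and 37 reads and an RRTS of 34.8%, 34.8% and 23.8%. Its region lies wholly within the annotated CDS of the histone gene H3C4, and reads of near-identical histone genes cannot be told apart.

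HOXD11, a homeobox transcription factor, had 27, 57 and 79 reads over 312 nt and an RRTS of 68.4%, 90.7% and 148%. NAA38, an auxiliary subunit of the NatC N-terminal acetyltransferase, had 21, 40 and 47 reads and 58.1%, 58.7% and 101%. In both genes the G418 value was the highest of the 3 and was under 2.2 times each untreated value. BRI3BP, which binds the membrane protein BRI3, had 11, 10 and 54 reads and an RRTS of 56.4%, 27.4% and 205%. KIF22, a chromosome-binding kinesin without an in-frame stop codon in its 3′UTR, had 11, 10 and 29 reads and an RRTS of 48.7%, 20.4% and 109%. PMAIP1, the proapoptotic BH3-only protein NOXA, had 26, 33 and 72 reads and 21.6%, 18.7% and 51.6%, and FBL, the methyltransferase fibrillarin, had 26, 54 and 127 reads and 14.3%, 17.4% and 57.3%. In BRI3BP, KIF22, PMAIP1 and FBL the G418 value exceeded both untreated values, by 2.25 to 7.47 times.

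Reads past the 3′TC were taken as all 3′UTR reads less the readthrough reads, with negative values set to 0. They can thus include reads in the 6 nt after the NTC that are left out of the region. ACTB, without an in-frame stop codon in its 3′UTR, had 13 such reads in G418 A. These reads were common in a few of the genes named above. GPATCH4 had 58, 64 and 66 reads after the 3′TC, AL031777.3 had 220, 294 and 237, and PMAIP1 had 102, 134 and 141. In these 3 genes more reads lay after the 3′TC than before it in each library, with no correction for length. FBL had 0, 0 and 2 reads there, HOXD11 had 0, 0 and 3, and MDH1 had 7, 4 and 151.

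The members with the most untreated readthrough reads were AL031777.3, ACTB, OST4, HOXD11, FBL, MDH1, RPL11 and NAA38. ACTB, β-actin, had 29, 83 and 452 reads, but against 19288, 36571 and 24268 CDS reads its RRTS was 0.823%, 1.24% and 10.2%. OST4, a small subunit of the oligosaccharyltransferase, had 46, 46 and 403 reads over 243 nt and an RRTS of 10.9%, 5.52% and 87.2%. RPL11, a ribosomal protein of the large subunit that ends in UAAA, had 28, 42 and 78 reads and an RRTS of 3.37%, 3.60% and 8.07%. The G418 value of RPL11 was 2.40 and 2.24 times the untreated values, and that of OST4 was 7.98 and 15.8 times them.

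The ratio of the G418 RRTS to the untreated mean was highest, among members with at least 10 reads in each untreated library, in BSG, PFN1, EEF1A1, CKB and RPS4X. BSG, the membrane glycoprotein basigin, had 16, 13 and 533 reads and an RRTS of 0.846%, 0.345% and 21.2%. PFN1, the actin-binding profilin 1, had 23, 23 and 565 reads and 0.890%, 0.474% and 21.6%. EEF1A1, the elongation factor that delivers aminoacyl-tRNA, had 10, 28 and 288 reads and 0.345%, 0.639% and 15%. CKB, brain-type creatine kinase, had 16, 25 and 423 reads and 4.24%, 3.19% and 83.0%, and RPS4X, a ribosomal protein of the small subunit, had 12, 16 and 331 reads and 1.58%, 1.48% and 33.9%. All 5 end in UGA and their ratios to single untreated libraries ran from 19.6 to 61.5. The ratio was lowest in AL031777.3, GPATCH4, TAF1D, TOMM7 and NAA38. TOMM7, a subunit of the mitochondrial outer membrane translocase that ends in UAAG, had 10, 10 and 12 reads and 8.35%, 6.88% and 8.73%.

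High and low ratios sat at opposite ends of the untreated range. Of the 48 members with at least 10 reads in each untreated library, 20 had an untreated mean of 10% or more, and their ratio of G418 to untreated RRTS had a median of 2.94 and a maximum of 9.30. The 9 with an untreated mean under 2% had a median ratio of 21.8, with a minimum of 2.53. Since the untreated mean is also the denominator of the ratio, these values are a description.

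**Figure D4:**
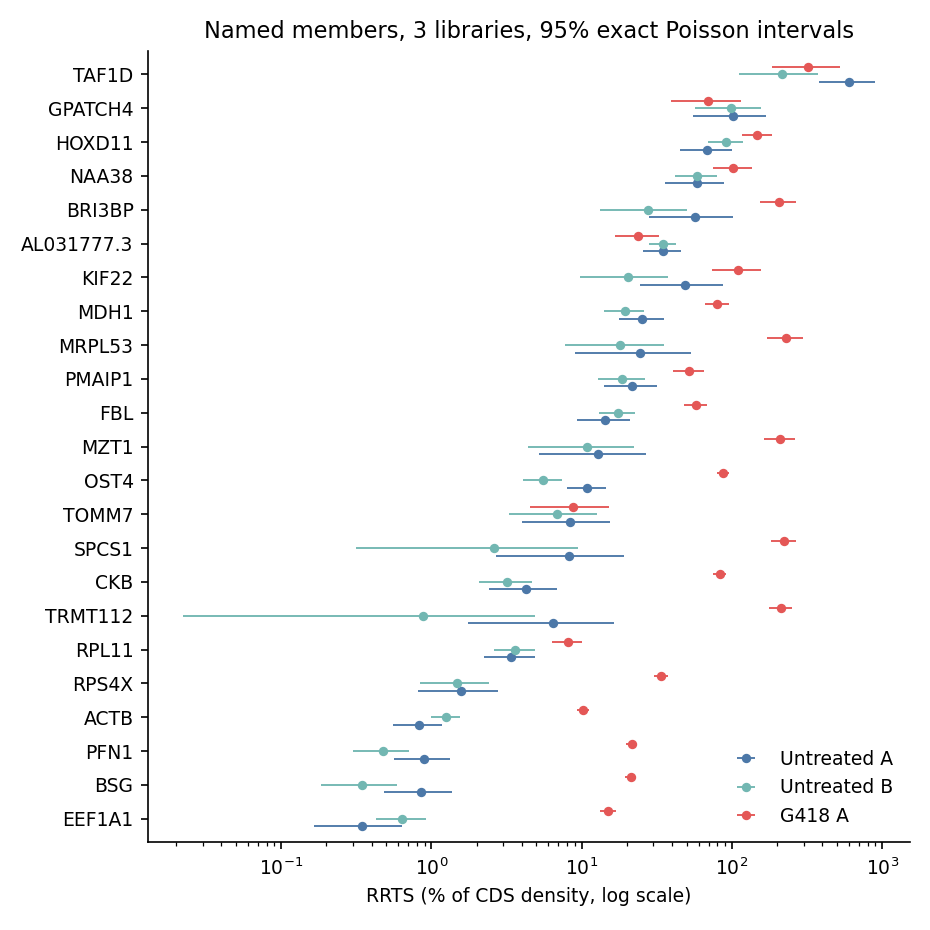
RRTS as a percentage of the CDS density (x, log scale) of 23 named members (y) in Untreated A, Untreated B and G418 A, where points are the values of single libraries and bars their 95% exact Poisson intervals for counting error. The G418 points lie to the right of both untreated points except in TAF1D, GPATCH4 and AL031777.3, by the largest distances in TRMT112, SPCS1 and the lowest 3 genes.

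The members with the highest G418 RRTS among those with at least 50 G418 reads were MRPL53, SPCS1, TRMT112, MZT1 and BRI3BP. MRPL53, a mitochondrial ribosomal protein, had 6, 8 and 55 reads and an RRTS of 24.5%, 17.9% and 228%. SPCS1, a subunit of the signal peptidase, had 5, 2 and 113 reads and 8.23%, 2.62% and 220%. TRMT112, which activates several methyltransferases, had 4, 1 and 135 reads and 6.42%, 0.874% and 211%. MZT1, a component of γ-tubulin complexes, had 7, 7 and 72 reads and 12.9%, 10.8% and 208%. All 5 end in UGA, with regions of 42 to 93 nt, and in each the region was more than 2 times as dense as the CDS in G418 A.

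Region length varied from 18 to 59 nt in 191 members, from 60 nt to under 150 nt in 312 and was 150 nt or more in 155, which were 7.47%, 14.3% and 16.4% of the transcripts of those lengths. The pooled RRTS of members fell from the shortest to the longest class in each library, from 5.12% to 1.44%, from 3.95% to 1.11% and from 33.4% to 19.9%. In the others it fell too, from 1.69% to 0.505%, from 1.09% to 0.477% and from 26.7% to 15.1%. At like CDS reads a short region reaches 1 untreated read only at a higher RRTS, so the members' untreated fall was in part set by the rule. The members' median G418 RRTS was 35.7%, 28.6% and 27.0% in the 3 classes. UGA ended 49.7%, 52.2% and 63.9% of the members in them. In 35 members (5.32%) and 207 others (4.12%) the 3′UTR held no in-frame stop codon, and among the 48 best covered members there were 7 of these.

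The stretch after the 3′TC was not used by the rule and was available in 591 members with at least 18 nt of it. Its length, like its reads, was taken by subtraction and includes the 6 nt after the NTC that are left out of the region. Pooled over these members, its density was 0.184%, 0.141% and 0.838% of that of the CDS in the 3 libraries. In 4741 other transcripts it was 0.175%, 0.164% and 0.860%, close to the members' values in G418 A. Density past the 3′TC was 0.0742, 0.0713 and 0.0350 times that before it in the members, and 0.183, 0.225 and 0.0424 times in the others. The untreated reads before the 3′TC chose the members, so the untreated ratios of members and others are not compared. From the untreated mean to G418 A the density past the 3′TC was 5.15 times as high in members and 5.07 times as high in the others. Members had more CDS reads than the others, which raises the share of transcripts with any read at equal density. Reads after the 3′TC were found in 50.6%, 48.9% and 82.9% of the members, against 30.8%, 31.6% and 67.5% of the others. The 10 members with the most such reads, among them HSP90AA1, AL031777.3, SNRPB and HSPA1B in G418 A, carried part of this density, and without them it was 0.128%, 0.102% and 0.726%.

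Membership and expected reads differed between gene families, against 11.6% of the 5680 transcripts that were members. Of 59 cytosolic ribosomal protein transcripts 28 were members (47.5%), with a median of 318 expected reads in the family, as were 17 of 31 histone transcripts with 424, 24 of 66 transcripts of oxidative phosphorylation with 110, 9 of 14 hnRNP transcripts with 98.6 and 16 of 53 mitochondrial ribosomal proteins with 56.3. Solute carriers, with a median of 14.6, had 5 of 79, among them the X and Y copies of the pseudoautosomal gene SLC25A6, and zinc finger genes, with 7.96, had 4 of 71. Members were also 7 of 30 proteasome transcripts (23.3%) with a median of 127.9 expected reads, 4 of 6 chaperonin transcripts with 137, 5 of 9 elongation factors (55.6%) with 92.4, 7 of 12 heat shock transcripts (58.3%) with 60.6, 5 of 41 initiation factors with 47.8, 3 of 15 tubulins with 20.5 and 1 of 9 selenoprotein transcripts, SELENOH, with 40.2. The order of the families by share of members was not that by expected reads, since the hnRNP, heat shock and elongation factor families had fewer expected reads than the proteasome and a larger share of members. The part of expected reads in these shares was not tested.

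The families differed in G418 A. The median G418 RRTS was 19.8% in the ribosomal protein members, of which 17 of 28 end in UAA, and 11.2% in the histone members, of which 9 of 17 end in UAA. It was 25.2% in mitochondrial ribosomal protein members, 18.9% in members of oxidative phosphorylation and 37.7% in heat shock members, against 29.8% over all members. Ribosomal protein members had a pooled RRTS of 1.93%, 1.35% and 18.7% and histone members of 0.760%, 0.540% and 8.18%. Histones, ribosomal proteins, tubulins, actins and HSPA1 genes have near-identical copies, and their 51 members are uncertain to that extent. These 51 were picked by gene symbol, so AL031777.3, whose region lies within the CDS of H3C4, was not among them. Without the 51 the members' pooled RRTS was 2.71% untreated and 27.6% in G418 A.

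Few members differed in CDS density between the conditions. It was at least 2-fold higher in G418 A than the untreated mean in 4 members (ALG12, AMD1, C4orf48 and MANF), against a background of 1.06% of the 5680 transcripts, and at least 2-fold lower in 3 (HIST1H2AG, ID3 and NDUFA1), against 0.088%. The counts were 7 and 5 without Untreated A and 8 and 1 without Untreated B. In an alternative test of CDS reads, edgeR's quasi-likelihood test, 13 members were called higher and 17 lower in G418 A at an adjusted p under 0.05, against 1.87% and 0.704% of the 5680 transcripts. The same 2-fold limit between Untreated B and Untreated A was passed by 1 member. MANF, a secreted protein of the endoplasmic reticulum stress response, had a log2 change of 1.14, from untreated densities of 192 and 188 RPKM (RPM per kilobase of region). ALG12, a mannosyltransferase of N-glycan assembly, had 12.6, 15.7 and 35.2 RPKM, and AMD1 had 40.9, 35.6 and 76.8 RPKM. NDUFA1, a subunit of complex I, had 1033, 1179 and 445 RPKM. The median log2 change over members was -0.01 and over all 5680 transcripts 0.07. These are footprint densities scaled to depth, in which a change in mRNA level cannot be told apart from one in ribosomes per mRNA.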

How the data were processed

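Ribosome footprints of HEK293T cells, purified by size on gels from a slightly wider range than was kept below per the labels, were sequenced in 2 untreated libraries and 1 G418 library. The authors aligned reads to hg38 with STAR (the submitters' processing notes also name CASAVA 1.8), assigned them to 1 transcript per gene of GENCODE v30 and kept footprints of 28 to 35 nt for the deposited tables. They deposited per transcript raw read counts of the CDS, RPM values of CDS and 3′UTR, RPKM densities and the ratio RRTS. The first 6 nt after the stop codon are left out of the reads and density of the region. The region lengths given here include them and the 3′TC.

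Reads were recovered from the deposited RPM values, of which 100% of the nonzero readthrough values were whole reads within 0.01. Pooled RRTS is the sum of reads over the sum of expected reads. The members and gene lists were chosen with earlier results of these data known. Genes are named if they had the 10 highest untreated RRTS, the 8 highest untreated read counts, the 5 highest or lowest ratios, the 5 highest G418 RRTS, stood on a list of 17 genes with studied readthrough or lay at the threshold. Other genes (the CUA members, MRPL52, ZNF529, MFSD4B and those with changed CDS density) were chosen after their values were seen. Stop codons were located in GENCODE v44. Python 3.11.15, SciPy 1.17.1 and, on simulated data first, edgeR 4.0.16 in R 4.3.3 were used. edgeR's quasi-likelihood test, with the lone G418 library assumed to vary like the untreated ones, was an alternative for CDS reads at a Benjamini-Hochberg adjusted p under 0.05.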

Additional observations from a re-analysis of the deposited data

How the results depend on the processing

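No paired analysis was possible because the untreated and G418 groups share a single replicate letter. Of 90 alternative values over 11 results, 57 stayed within a range set around the value reported and 33 moved beyond it. The cause was not tested beyond the choice of transcripts itself. For counts of members the range was a fixed factor and not an error, such as 439 to 987 for the 658 members. Some of the 57 were bound to stay, since CDS reads recovered from the RPM values gave the values reported again. With at least 3 reads in each untreated library there were 268 members, the pooled G418 RRTS was 23.2%, the share at 10% or more was 88.4%, the ratio of density after to before the 3′TC in G418 A was 0.0476 and r was 0.58. With at least 10 reads there were 48 members, with a median region of 70.5 nt, a pooled RRTS of 3.34% untreated and 27.1% in G418 A, a median G418 RRTS of 39.2%, a fold of 8.12, a share of 89.6%, a ratio of 0.0605 and an r of 0.64. A mean of at least 500 CDS reads gave a UGA share of 48.8%, a median region of 78 nt, a pooled RRTS of 1.86% and 22.2% and a ratio of 0.0358. Regions of at least 60 nt gave a median of 117 nt, a pooled RRTS of 1.84% and 22.0% and a ratio of 0.0366. Leaving out regions with annotated CDS gave 23.5% and 0.0341, and leaving out families with near-identical copies gave 2.71%, 27.6% and 0.0318. With no minimum of CDS reads the ratio was 0.0371. Replacing 0 reads by 0.5 read gave an r of 0.46.

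Leaving out 1 untreated library at a time gave a pooled untreated RRTS of 1.98% to 2.48%, a fold of 9.59 to 12, an r of 0.45 (without Untreated A) to 0.52 and 9 to 12 members past 2-fold in CDS density (12, with 7 up and 5 down, without Untreated A, and 9, with 8 up and 1 down, without Untreated B, against 4 up and 3 down with both). TMM factors gave 3 up and 5 down. edgeR's test called 30 members at an adjusted p under 0.05, 13 up and 17 down, against 1.87% and 0.704% of all 5680 transcripts, while 7 members passed 2-fold. Depth limits single members: the median member had 3 and 4 untreated reads.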
